A study of Mus musculus with 33 samples.

Results

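The comparison described here sets 2 neighbouring stages of the neutrophil path against each other within septic mouse bone marrow: 3 libraries of proNeu1, an early neutrophil progenitor, against 3 libraries of granulocyte-monocyte progenitors that lack the surface antigen Ly6C (Ly6C- GMP). The 6 libraries were chosen by their cell type labels out of 33 libraries in the series, and every gene was examined. The mice of these 6 libraries were killed 3 days after mid-grade CLP, that is caecal ligation and puncture, a surgical model in which gut contents leak into the abdomen and cause sepsis. The control stages, used as a reference, came from wild-type (WT) mice with no CLP named in their labels, and their 3 Ly6C- GMP and 3 proNeu1 libraries were sorted in the same way. The labels give no strain, age or sex, and say only that each group holds 3 biological replicates. The later septic stages proNeu2 and preNeu, with 3 libraries each, were used to place a few levels. Because libraries were made from a fixed small amount of RNA of sorted cells, fewer cells of a type and less RNA per cell cannot be told apart in any value below.

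Granulocyte-monocyte progenitors are bone marrow cells that give rise to neutrophils and monocytes, and sorted fractions of them can also hold precursors of eosinophils, basophils and mast cells. On the neutrophil path, granule proteins are made in waves: the azurophil (primary) granule enzymes such as myeloperoxidase and neutrophil elastase come first, the specific (secondary) granule proteins such as lactoferrin follow, and receptors and proteins of the mature cell come last. In infection the marrow speeds up neutrophil output, a response known as emergency granulopoiesis.

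The 3 septic Ly6C- GMP libraries held 25.1, 25.6 and 28.2 megacounts (Mcounts), and the 3 septic proNeu1 libraries held 6.43, 27.0 and 21.04 Mcounts, against a range of 5.52 to 39.98 Mcounts over the series. The shallow proNeu1 library is replicate 1, and the results below name it where leaving it out matters. Across genes within these libraries, Pearson correlations of log2(CPM + 1) ran from 0.99 to 0.992 within septic Ly6C- GMP, from 0.991 to 0.994 within septic proNeu1 and from 0.983 to 0.99 between the groups. CPM are counts per megacount of the effective (TMM-scaled) library size. Septic Ly6C- GMP replicate 1 had 2.49% mitochondrial counts against 1.32% and 1.20% in replicates 2 and 3, and septic proNeu1 replicate 1 had 1.90% against 1.17% and 1.20%. Replicate 1 also had the highest share in septic proNeu2 (2.40%) and septic preNeu (1.42%), though replicate numbers follow accession order and pair no samples, and the part of this share in the results was not tested.

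Among the genes higher in septic proNeu1 than in septic Ly6C- GMP were some of neutrophil granules, of the phagocyte oxidase and of the Ly6C surface antigens, and among the lower ones were genes of eosinophil, basophil, mast cell and stem cell character, many of them nearly at zero. Of 18198 genes tested, 234 passed (1.29%) in edgeR's quasi-likelihood test, the threshold for a call being 0.05 on the p adjusted by Benjamini-Hochberg, with 151 higher (0.83%) and 83 lower (0.456%). Falls outnumbered rises by limma (404 against 363) and against a fold change of 1.5 (31 against 24). Rises outnumbered falls in the other alternatives. The 29 gene lists examined hold 27 of the 151 and 26 of the 83. The called rises were modest and the called falls steep. Among called genes, 56 of the 151 rises and 75 of the 83 falls reached 2-fold, and the median log2 change was 0.90 for the rises and -3.43 for the falls. The 2 sets differ in level. Of the rises, 137 averaged 20 CPM or more in septic proNeu1, and 39 of the falls did so in septic Ly6C- GMP. A further limit is that 13 of the falls had 0 counts in septic proNeu1 and stand at fitted values. The part of level in this contrast was not tested. The median over all tested genes was -0.05 on the log2 scale, and 1886 genes had an unadjusted p under 0.05. The count depended on single libraries: it was 102 without septic Ly6C- GMP replicate 1, 96 without septic proNeu1 replicate 2 and 136 without proNeu1 replicate 3, against 191 without the shallow proNeu1 library. The plot of 20 genes by library shows the pattern in the 6 libraries.

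**Figure D1:**
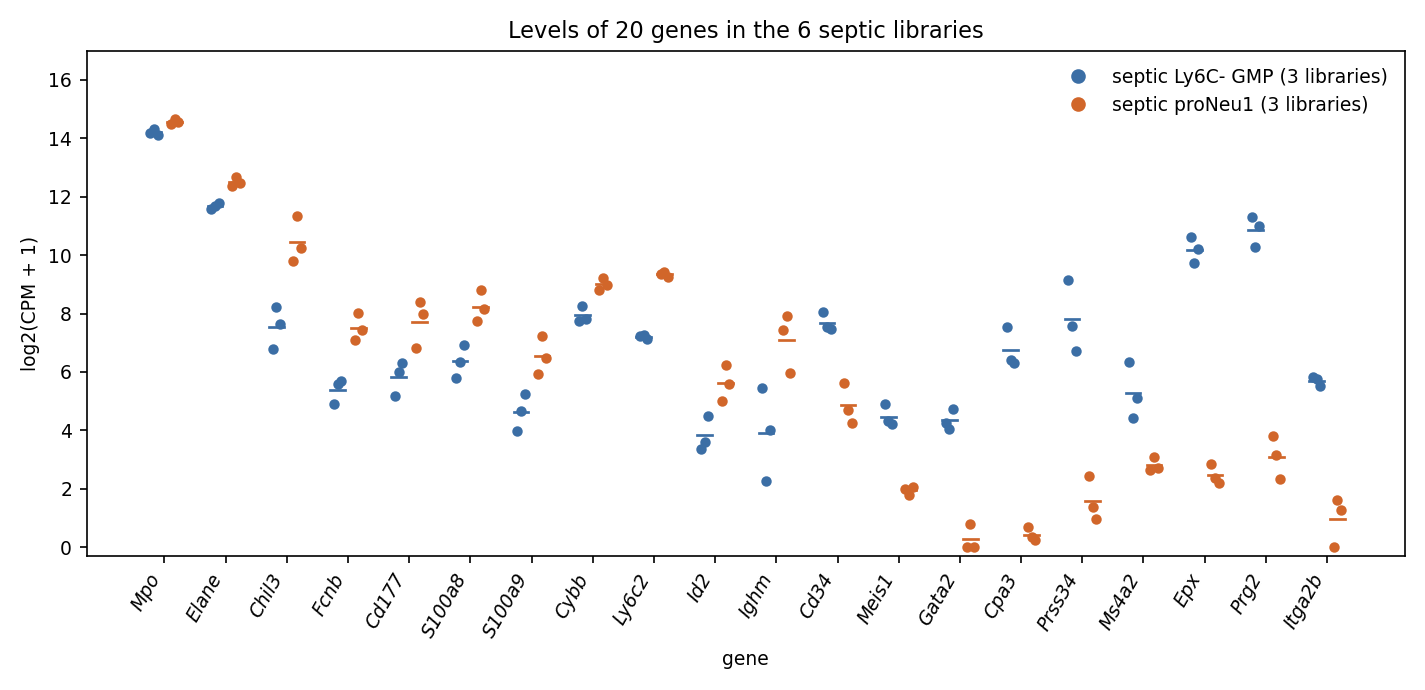
Levels of 20 genes as log2(CPM + 1) on the vertical axis, 1 point per library and 1 short line per group mean, with 3 septic Ly6C- GMP libraries in blue and 3 septic proNeu1 libraries in orange. Mpo and Elane lie close together in both groups, the granule and surface genes from Chil3 to Ighm lie higher in proNeu1, and the genes from Cd34 to Itga2b lie lower there.

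The azurophil granule genes, the first wave, were already high in septic Ly6C- GMP, and few passed the test. Of the 11 genes of this list, 1 was called higher (Serpinb1a, an inhibitor of neutrophil proteases) and 0 were called lower, with a median log2 change of 0.45, and 5 had an unadjusted p under 0.05. Of the 11, 10 had a log2 change above 0 and 8 had groups that did not overlap in the higher direction, against 8.33% of all tested genes. Mpo, which encodes myeloperoxidase, stood at 18583, 20659 and 17633 CPM in septic Ly6C- GMP and at 22865, 25968 and 24197 CPM in proNeu1. The 2 groups did not overlap, and the log2 change of 0.36 ± 0.15 (SE) had an adjusted p of 0.383. Elane, which encodes neutrophil elastase, measured 3079, 3315 and 3490 CPM in the GMP libraries and 5235, 6567 and 5627 CPM in proNeu1, a log2 change of 0.82 ± 0.22 with an adjusted p of 0.0627. Serpinb1a rose from 576, 557 and 638 CPM to 918, 1341 and 1044 CPM (log2 change 0.90 ± 0.15, adjusted p = 0.000487). The number of azurophil genes called depended on the tool, with 3 by DESeq2, 7 by limma and 8 when edgeR was fitted on the 6 libraries alone.

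The specific granule genes, the second wave, changed most among the neutrophil lists. Of 17 genes, 7 were called higher and 0 lower, all 17 had a log2 change above 0, and the median was 1.17. The called genes were Chil3, Fcnb, Cd177, Itgb2l, Hp, Anxa1 and Ltb4r1. Chil3, a chitinase-like lectin of neutrophils and macrophages, measured 108, 296 and 200 CPM in septic Ly6C- GMP and 887, 2582 and 1199 CPM in proNeu1 (log2 change 2.95 ± 0.40, adjusted p = 4.55e-05); reads may be shared with its near-identical relative Chil4. All 3 proNeu1 values lay above all 3 GMP values. Fcnb, which encodes ficolin-B, a pattern-recognition lectin, rose from 28.9, 46.5 and 50.3 CPM to 136, 256 and 174 CPM (2.17 ± 0.25, adjusted p = 2.39e-06). Cd177, a neutrophil surface glycoprotein, rose from 34.9, 62.2 and 78.0 CPM to 112, 333 and 250 CPM (1.99 ± 0.40, adjusted p = 0.00592). Its groups did not overlap, but the call was lost without septic Ly6C- GMP replicate 1 (adjusted p = 0.0871) or without proNeu1 replicate 2 (0.0930). The Cd177 call was also lost when only the libraries compared were fitted and against a fold change of 1.5. Hp, which encodes the haemoglobin-binding protein haptoglobin, had the tightest replicates, with 542, 545 and 587 CPM against 1143, 1393 and 1234 CPM (1.17 ± 0.11, adjusted p = 8.52e-08). Itgb2l, an integrin beta chain of neutrophils, had the least stable call (1.62 ± 0.39, adjusted p = 0.0305), lost once any 1 library except the shallow one was left out. It was also lost by DESeq2, by limma, with no filter and against a fold change of 1.5. The number of specific granule genes called was 4 without septic Ly6C- GMP replicate 1, 4 without proNeu1 replicate 2 and 8 without the shallow library.

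Several defining genes of that wave did not pass the test in septic marrow. Ltf, which encodes lactoferrin, measured 11.8, 26.7 and 15.5 CPM in septic Ly6C- GMP and 27.9, 37.1 and 37.9 CPM in proNeu1 (log2 change 0.94 ± 0.43, adjusted p = 0.448). Its 2 groups did not overlap, yet the lowest proNeu1 library was only just above the highest GMP library. Camp, which encodes the antimicrobial peptide cathelicidin, had a change of 1.48 ± 0.40 (adjusted p = 0.064). It was called without the shallow proNeu1 library (adjusted p = 0.0379), without septic Ly6C- GMP replicate 3 (0.0152), by DESeq2 (0.0237) and on halved counts (0.0376). Ngp, a neutrophil granule protein of the cystatin family, had a change of 1.06 ± 0.48 (adjusted p = 0.438).

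The promoters of 3 specific granule genes that rose are printed below, beside a count of short motifs. Each is the 250 bases before the annotated start in RefSeq's GRCm38.p6 annotation, 5′ to 3′ on the gene's strand: Chil3 at chr3:106167565-106167814, minus strand, Fcnb at chr2:28084879-28085128, minus strand, and Cd177 at chr7:24760312-24760561, minus strand. Capitals mark a match to 1 of 3 motifs searched on both strands: the C/EBP core TTGCNNAA or TTNNGCAA, the PU.1 core GAGGAAG or CTTCCTC, and the GATA core AGATAA or TTATCT. The letters of these motifs do not overlap each other.
Chil3: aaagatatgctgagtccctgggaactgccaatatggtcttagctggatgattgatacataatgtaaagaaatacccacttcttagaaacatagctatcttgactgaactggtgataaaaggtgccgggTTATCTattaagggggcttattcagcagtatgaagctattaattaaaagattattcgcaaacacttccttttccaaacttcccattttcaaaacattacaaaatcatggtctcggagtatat
Fcnb: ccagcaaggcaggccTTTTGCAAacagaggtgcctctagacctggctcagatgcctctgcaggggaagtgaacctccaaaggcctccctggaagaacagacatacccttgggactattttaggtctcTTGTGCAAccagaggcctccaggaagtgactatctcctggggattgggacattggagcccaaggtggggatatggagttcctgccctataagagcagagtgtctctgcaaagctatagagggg
Cd177: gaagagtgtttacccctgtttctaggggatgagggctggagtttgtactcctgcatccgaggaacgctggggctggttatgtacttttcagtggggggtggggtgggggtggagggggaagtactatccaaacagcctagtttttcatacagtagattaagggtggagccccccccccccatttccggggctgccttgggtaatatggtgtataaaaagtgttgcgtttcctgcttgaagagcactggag
Fcnb has 2 C/EBP cores, beginning 235 and 123 bases before the start, Chil3 has 1 GATA core beginning 122 bases before it, and Cd177 has none of the 3 motifs. Promoters were found for 11094 of the 18198 tested genes, 14104 promoters in all, of which 7.98% held the C/EBP core, 11.3% the PU.1 core and 6.47% the GATA core. Of 167 promoters of genes called higher (121 of 151 genes matched), 16.2% held the C/EBP core, 18.0% the PU.1 core and 7.78% the GATA core. The C/EBP core was in 7 of 16 promoters (43.8%) of the specific granule list, 3 of 9 (33.3%) of the eosinophil list, 3 of 13 (23.1%) of the basophil and mast cell list and 25% of those of the genes whose stage effect differed from control (76 promoters, 61 of 81 genes matched). It was in 4 of 23 (17.4%) of the late neutrophil list and 0 of 3 of the NADPH oxidase list. The PU.1 core was in 5 of 16 promoters of the specific granule list, 8 of 23 (34.8%) of the late neutrophil list and 0 of 3 of the NADPH oxidase list. In the eosinophil list it was in 1 of 9, and in the basophil and mast cell list in 2 of 13. These shares are descriptions with no test, and a match shows the letters only, not a bound site.

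Genes of the mature neutrophil rose in part. Of 26 late neutrophil genes, 4 were called higher (S100a8, S100a9, Trem3 and Pglyrp1) and 0 lower, with a median log2 change of 0.68. S100a8 and S100a9 encode the 2 chains of calprotectin, the most abundant cytosolic protein of neutrophils. S100a8 rose from 54.8, 80.4 and 122 CPM to 212, 444 and 285 CPM (log2 change 1.88 ± 0.30, adjusted p = 0.000382). S100a9 rose from 14.6, 24.6 and 36.9 CPM to 59.95, 151 and 88.5 CPM (1.98 ± 0.38, adjusted p = 0.00369). Neither gene's groups overlapped. The list's count fell to 1 without septic Ly6C- GMP replicate 1 and to 1 without proNeu1 replicate 2, where S100a9 missed the threshold with adjusted p = 0.0653 and 0.0845. By limma S100a9 was not called either. Csf3r, the receptor for the growth factor G-CSF, measured 277 to 296 CPM and 340 to 395 CPM and was not called (0.35 ± 0.14, adjusted p = 0.345).

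The phagocyte NADPH oxidase, the enzyme complex that makes superoxide in phagosomes, rose almost as a whole. Of 6 genes tested, 5 were called higher, with a median log2 change of 0.69. Cybb, the membrane-bound catalytic subunit, rose from 212, 309 and 222 CPM to 445, 591 and 502 CPM (1.05 ± 0.19, adjusted p = 0.00216). Its partner Cyba (0.73 ± 0.16, adjusted p = 0.0147), the cytosolic subunits Ncf1 (0.84 ± 0.17, 0.00766) and Ncf4 (0.65 ± 0.12, 0.00275) and the small GTPase Rac2 (0.47 ± 0.11, 0.0217) also rose. The count of 5 became 1 without septic Ly6C- GMP replicate 1, 3 without Ly6C- GMP replicate 2 and 1 without proNeu1 replicate 2, and stayed at 5 without the shallow library.

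Other genes with the largest rises included surface molecules and an immunoglobulin gene. Ly6c2 measured 148, 154 and 137 CPM in septic Ly6C- GMP and 657, 693 and 609 CPM in proNeu1 (2.16 ± 0.20, adjusted p = 4.46e-08), and Ly6c1 rose alike (2.14 ± 0.23, adjusted p = 5.28e-07). These 2 genes encode the Ly6C antigen on which the GMP fraction was sorted as negative, so their rise is not independent of the gate, and they can share reads. Of 18 genes listed as surface markers of the sorts, 4 were called higher (Ly6c2, Ly6c1, Fcgr3 and Cd177) and 2 lower (Cd34 and Flt3). The part of the gates in the changes of Fcgr3, Cd177, Cd34 and Flt3 was not tested. Gpc1, a cell-surface heparan sulphate proteoglycan, rose from 17.5, 19.2 and 21.3 CPM to 97.1, 116 and 84.3 CPM (2.36 ± 0.31, adjusted p = 2.24e-05). Clec4a2, an inhibitory C-type lectin receptor, rose by 2.32 ± 0.31 (adjusted p = 3.2e-05), and Fcgr3, a low-affinity receptor for immunoglobulin G, by 0.82 ± 0.14 (adjusted p = 0.000742). Lin28a, an RNA-binding protein that blocks let-7 maturation, rose from 5.64, 5.47 and 8.56 CPM to 20.9, 20.6 and 27.1 CPM (1.80 ± 0.41, adjusted p = 0.0162), and its call was lost without septic Ly6C- GMP replicate 1 or 2 or proNeu1 replicate 2 or 3. Chpt1, an enzyme of phosphatidylcholine synthesis, rose by 1.79 ± 0.39 (adjusted p = 0.0126), a call lost without GMP replicate 1 or 2 or proNeu1 replicate 2. Csf2ra, the alpha chain of the GM-CSF receptor, rose by 0.73 ± 0.12 (adjusted p = 0.000705).

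Ighm, the immunoglobulin heavy chain of IgM, varied widely between libraries: 42.4, 3.82 and 15.3 CPM in septic Ly6C- GMP against 172, 238 and 62.1 CPM in proNeu1 (log2 change 2.94 ± 0.55, adjusted p = 0.00279). The groups did not overlap, but the gene was not called when only the 6 libraries were fitted (adjusted p = 0.129). It was the only one of 12 tested B lineage genes called, and the list's median was 0.01 (0.81 with genes at 0 counts set to the limit that 3 counts allow). Summed over all 14 B lineage markers the level was 42.0 to 84.9 CPM in septic Ly6C- GMP and 106 to 317 CPM in proNeu1, with Ighd and Pax5 at 0 in both groups and Ms4a1 and Mzb1 at 0 in proNeu1. Jchain, the joining chain of secreted immunoglobulin, moved beside it without being called (4.08, adjusted p = 0.0876), and the part of B lineage cells or free RNA in the Ighm value was not tested.

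The falls were led by granule genes of eosinophils. Of 10 eosinophil genes tested, 6 were called lower and 0 higher (Prg2, Prg3, Epx, Ear1, Ear2 and Ear6), with a median log2 change of -6.32, and leaving out any 1 library left the count at 6. Epx, which encodes eosinophil peroxidase, fell from 1566, 852 and 1183 CPM to 6.26, 4.18 and 3.60 CPM (-8.07 ± 0.51, adjusted p = 4.26e-11). Prg2, the eosinophil major basic protein, fell from 2553, 1243 and 2068 CPM to 12.97, 7.85 and 4.08 CPM (-7.97 ± 0.57, adjusted p = 4.23e-10). Prg3, its neighbour and paralog on chromosome 2, fell from 203, 86.9 and 118 CPM to 0.60, 0.66 and 0 CPM (-8.40 ± 0.85, adjusted p = 2.86e-07). The eosinophil-associated ribonuclease genes Ear1, Ear2 and Ear6 fell by 5.602, 8.14 and 7.03 on the log2 scale, and since they are near-identical their reads cannot be assigned to 1 of them with certainty. The receptor for interleukin-5, Il5ra, measured 21.7, 10.5 and 13.5 CPM and then 0.30, 0.73 and 0.10 CPM, which did not pass the test (-5.25, adjusted p = 0.128), and Siglecf stood at 46.1 to 56.7 CPM and 39.3 to 47.6 CPM (-0.20, adjusted p = 0.976). The summed level of the 11 eosinophil markers was 2361 to 4537 CPM in septic Ly6C- GMP and 48.3 to 70.1 CPM in proNeu1, with Ear10 at 0 there.

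Genes of basophils and mast cells fell alongside. Of 11 tested, 7 were called lower and 0 higher, with a median log2 change of -7.24, or -5.09 with genes at 0 counts set to the limit that 3 counts allow. Cpa3, a mast cell carboxypeptidase, fell from 184, 84.4 and 77.4 CPM to 0.60, 0.26 and 0.19 CPM (-8.66 ± 0.64, adjusted p = 7.7e-10). Prss34, a basophil protease also known as mast cell protease 11, fell from 561, 190 and 105 CPM to 4.47, 1.58 and 0.96 CPM (-7.24 ± 0.71, adjusted p = 1.55e-07). Septic Ly6C- GMP replicate 1 had the highest level of both. Mcpt8, a basophil protease, fell less, from 79.9, 27.5 and 27.9 CPM to 7.76, 10.4 and 14.0 CPM (-2.04 ± 0.36, adjusted p = 0.00135), as did Ms4a2, the beta chain of the IgE receptor (-2.86 ± 0.44, adjusted p = 0.000366). Fcer1a, the alpha chain of that receptor, had 586 counts over the 3 GMP libraries and 0 in proNeu1, and Gzmb, a granzyme, had 377 and 0, so with a floor of 3 counts over the group they were at least 133-fold and at least 84.6-fold lower (adjusted p = 0.0136 and 0.0494). The count of 7 became 4 without septic Ly6C- GMP replicate 1 and 4 without proNeu1 replicate 2 or replicate 3. Fcer1a was not called once any 1 of these 3 was left out, and Gzmb was called only while all 6 libraries, or all but Ly6C- GMP replicate 2, were in the fit. Fcer1a was also not called with no filter. Gzmb was also not called by DESeq2, with RLE factors or against a fold change of 1.5. Summed over 13 markers the level was 446 to 1262 CPM in septic Ly6C- GMP and 129 to 183 CPM in proNeu1, where 5 of the 13 were at 0 (Fcer1a, Cma1, Tpsb2, Tpsab1 and Gzmb). Hdc, histidine decarboxylase, made up much of what remained, with 90.1, 124 and 66.9 CPM.

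The promoters of 3 of the steepest falls are printed in the same way, the GATA core being the motif whose share was highest against all promoters among the genes that fell: Cpa3 at chr3:20242182-20242431, minus strand, Prss34 at chr17:25298144-25298393, plus strand, and Epx at chr11:87875537-87875786, minus strand, all in GRCm38.p6.
Cpa3: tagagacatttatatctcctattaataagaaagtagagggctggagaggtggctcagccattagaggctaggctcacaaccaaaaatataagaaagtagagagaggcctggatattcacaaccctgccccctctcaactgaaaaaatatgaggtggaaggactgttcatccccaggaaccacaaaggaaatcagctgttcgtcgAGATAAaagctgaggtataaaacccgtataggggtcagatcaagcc
Prss34: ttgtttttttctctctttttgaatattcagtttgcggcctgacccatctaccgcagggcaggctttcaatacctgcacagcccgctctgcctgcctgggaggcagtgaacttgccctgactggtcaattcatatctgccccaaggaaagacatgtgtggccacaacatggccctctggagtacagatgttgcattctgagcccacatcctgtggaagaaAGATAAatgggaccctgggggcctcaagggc
Epx: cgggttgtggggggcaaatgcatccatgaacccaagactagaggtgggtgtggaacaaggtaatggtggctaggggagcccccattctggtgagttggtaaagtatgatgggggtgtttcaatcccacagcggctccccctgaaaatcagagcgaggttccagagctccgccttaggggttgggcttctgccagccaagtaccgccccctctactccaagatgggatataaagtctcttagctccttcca
Cpa3 has 1 GATA core beginning 46 bases before the start and Prss34 has 1 beginning 31 bases before it, while Epx has none of the 3 motifs. Of 95 promoters of genes called lower (63 of 83 genes matched), 13.7% held the GATA core, against 6.47% of all promoters, 9.47% held the C/EBP core and 16.8% the PU.1 core.

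Genes of stem cells and early progenitors were lower as well. Of 22 tested, 7 were called lower and 0 higher, with a median log2 change of -1.08. Cd34 and Flt3 among them are also listed as surface markers of the sorts, so their falls may not be independent of the gates. Cd34, a sialomucin of stem and progenitor cells, fell from 265, 183 and 176 CPM to 48.8, 24.7 and 17.8 CPM (-2.80 ± 0.58, adjusted p = 0.00813). Meis1, a homeobox factor of stem cells, fell from 29.0, 18.8 and 17.4 CPM to 2.98, 2.46 and 3.21 CPM (-2.92 ± 0.64, adjusted p = 0.0124), and Flt3, a receptor tyrosine kinase of early lymphoid and myeloid progenitors, by 3.17 ± 0.70 on the log2 scale (adjusted p = 0.0143). Ikzf2, which encodes the zinc finger factor Helios, fell from 39.1, 26.6 and 15.3 CPM to 1.79, 0 and 0.29 CPM (-5.96 ± 0.85, adjusted p = 8.9e-05). Angpt1, which encodes the TIE2 ligand angiopoietin-1, had 661 counts in the GMP libraries and 0 in proNeu1. With the floor of 3 counts it was at least 150-fold lower (adjusted p = 0.00596). Kit, the stem cell factor receptor, was at 258, 353 and 234 CPM and 193, 151 and 207 CPM, which did not overlap and did not pass the test (-0.62 ± 0.19, adjusted p = 0.119). It was called lower by DESeq2 (adjusted p = 0.0116), by limma (0.00805) and on halved counts (0.0426). Outside the list, P2ry14, a receptor for UDP-sugars on progenitors, fell by 3.56 ± 0.82 on the log2 scale (adjusted p = 0.0189). Ikzf2 was called whichever library was left out. Cd34 was not called without proNeu1 replicate 2 or 3, Angpt1 without proNeu1 replicate 2, P2ry14 without Ly6C- GMP replicate 1 or proNeu1 replicate 1 or 2, Meis1 without Ly6C- GMP replicate 1 or any 1 proNeu1 library, and Flt3 without Ly6C- GMP replicate 2 or any 1 proNeu1 library. The list's count of 7 became 4 without the shallow proNeu1 library, 2 without proNeu1 replicate 2 and 3 without proNeu1 replicate 3.

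Among lineage transcription factors, 2 of 29 were called higher and 2 lower, with a median log2 change of -0.11. Gata2, a factor of stem cells and of the basophil and mast cell lineage, fell from 18.1, 15.5 and 25.8 CPM to 0, 0.73 and 0 CPM (-5.87 ± 1.01, adjusted p = 0.000994). Gata1, the erythroid, megakaryocytic and eosinophil factor, fell from 10.7, 8.21 and 9.99 CPM to 0, 0.22 and 0.29 CPM (-5.50 ± 0.87, adjusted p = 0.000366). Both calls held in each of the 14 alternatives. Id2, an inhibitor of basic helix-loop-helix factors, rose from 9.38, 11.1 and 21.7 CPM to 30.9, 74.4 and 47.6 CPM (1.87 ± 0.26, adjusted p = 7.81e-05). Klf5, a Krüppel-like factor, rose from 4.40, 7.20 and 8.12 CPM to 18.5, 17.4 and 12.3 CPM (1.28 ± 0.32, adjusted p = 0.0436), a call lost in 10 of 14 alternatives, among them leaving out any 1 of the 6 libraries, with adjusted p from 0.0514 to 0.362 in those. The factors most closely tied to granulocyte and monocyte fate did not pass the test. Cebpe had 21.5, 54.8 and 102 CPM and 104, 149 and 132 CPM (1.12 ± 0.43, adjusted p = 0.298), Gfi1, a repressor needed for neutrophil formation, had a change of 1.00 ± 0.28 (adjusted p = 0.0776), and Cebpa had one of 0.16 ± 0.29 (adjusted p = 0.953). Gfi1 was called higher without septic Ly6C- GMP replicate 3 (adjusted p = 0.0368), by DESeq2 (0.0131), by limma (0.00629) and on halved counts (0.0409). Irf8, the monocyte and dendritic cell factor, had 131, 34.7 and 33.2 CPM in septic Ly6C- GMP and 68.3, 15.9 and 29.2 CPM in proNeu1 (-0.85 ± 0.59, adjusted p = 0.694), and without GMP replicate 1 its change was 0.08.

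Apart from the eosinophil, basophil, mast cell and late neutrophil genes above, few markers of other cells the sorts could hold were called. The summed level of the megakaryocyte markers, most of it Itga2b in septic Ly6C- GMP, was lower in proNeu1. Of 18 monocyte genes 1 was called higher (Ly6c2) and 1 lower (Tmem176b, -1.68 ± 0.38, adjusted p = 0.0151), the latter not called without septic Ly6C- GMP replicate 1 or without any 1 of the proNeu1 libraries. Of 14 erythroid genes and 8 megakaryocyte genes only Gata1 and Itga2b were called, both lower. Itga2b, integrin alpha IIb of platelets and early progenitors, fell from 55.7, 53.1 and 45.2 CPM to 0, 2.06 and 1.44 CPM (-5.23 ± 0.77, adjusted p = 0.000146), while Pf4, a platelet chemokine, measured at most 1.00 CPM in all 6 libraries. The 8 tested megakaryocyte genes had a median log2 change of -2.50, and its summed level over 10 markers was 52.4 to 63.8 CPM in septic Ly6C- GMP and 1.79 to 4.22 CPM in proNeu1. Of 15 MHC class II and dendritic genes 1 was called, H2-DMa, which loads peptide onto class II molecules (-1.20 ± 0.19, adjusted p = 0.000441). The summed class II and dendritic level was 155 to 195 CPM in septic Ly6C- GMP and 130 to 159 CPM in proNeu1. By edgeR's test 0 of 12 macrophage genes and 0 of 4 T and NK genes were called, with 2 and 1 at an unadjusted p under 0.05, 0 and 0 by DESeq2 and 1 and 0 by limma.

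Few genes of the housekeeping and growth programmes passed edgeR's test. By edgeR's test 0 of 30 DNA replication genes were called (1 at an unadjusted p under 0.05, 0 by DESeq2 and 0 by limma), and 0 of 24 G2 and M phase genes (0, 0 and 0). Of 24 ribosome biogenesis genes 0 were called by edgeR, although the median log2 change was -0.33, 16 of the 24 had groups that did not overlap in the lower direction (11.3% of all tested genes did), 5 had an unadjusted p under 0.05, 0 were called by DESeq2 and 8 by limma. Of 19 glycolysis genes 0 were called by edgeR, 7 had an unadjusted p under 0.05, and DESeq2 and limma called 3 and 5. Of these 19, 9 had groups that did not overlap in the higher direction and 1 in the lower direction. Over all tested genes these shares were 8.33% and 11.3%. Of 21 genes of endoplasmic reticulum chaperones and the unfolded protein response, edgeR and DESeq2 called 0 and limma 2. Groups did not overlap for 7 of these 21 in the higher direction and for 0 in the lower. Of 18 STAT3 response genes 1 was called, Hk3, a hexokinase of myeloid cells (0.79 ± 0.11, adjusted p = 9.9e-05), and of 25 interferon response genes 1, Ifitm1, an interferon-induced membrane protein, which fell from 97.0, 91.5 and 102 CPM to 28.5, 35.3 and 39.4 CPM (-1.49 ± 0.30, adjusted p = 0.00678). Of 22 lysosome genes 2 rose, both proton pump subunits (Atp6v0d1 and Atp6v1a), and 1 fell, the cathepsin gene Ctsh (-1.39 ± 0.20, adjusted p = 9.51e-05). The lysosome count of 2 became 1 without Ly6C- GMP replicate 1 or without proNeu1 replicate 2 or 3. Groups did not overlap for 8 of the 22 lysosome genes in the higher direction and for 1 in the lower. Of the 22, 11 had an unadjusted p under 0.05, and DESeq2 and limma called 4 and 6.

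**Figure D2:**
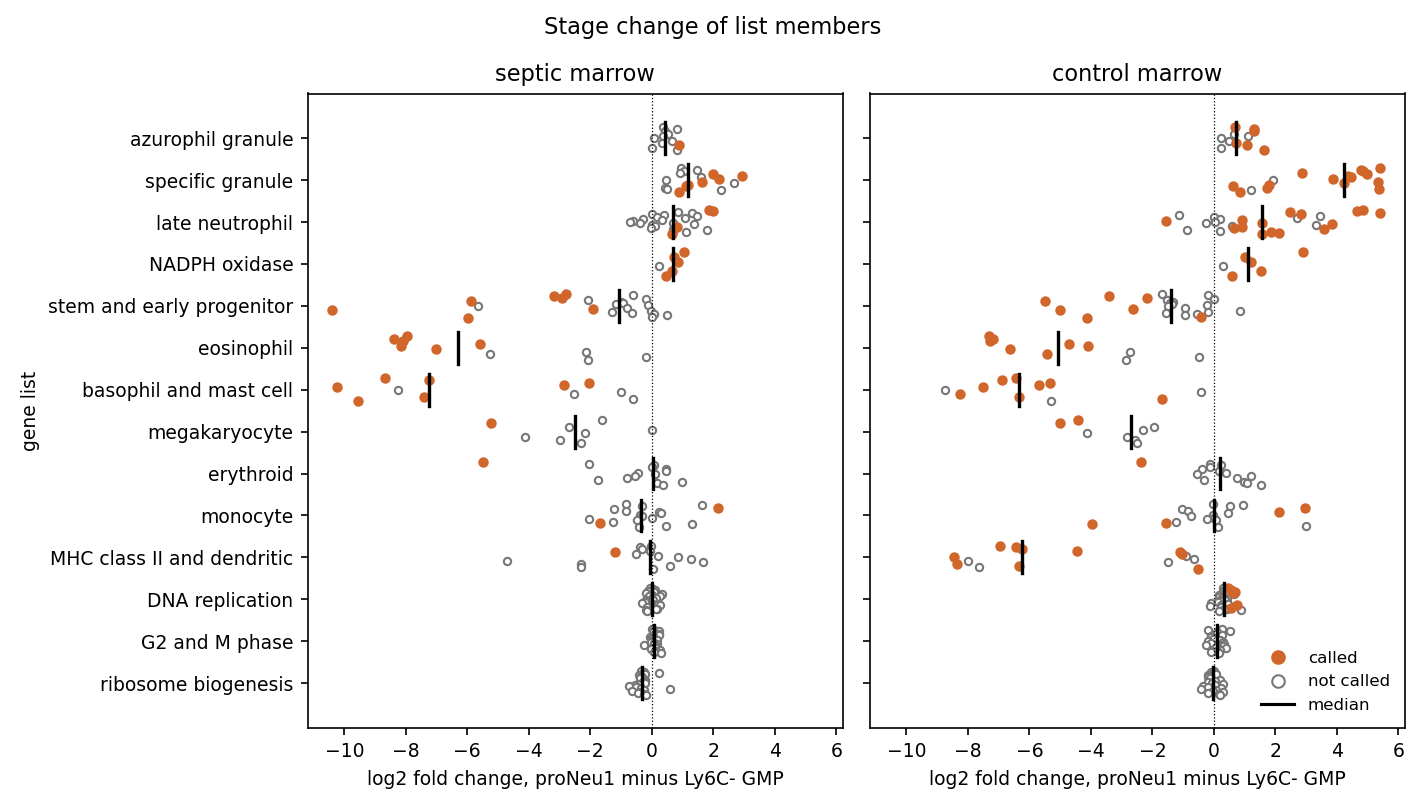
Log2 fold change of proNeu1 minus Ly6C- GMP for the tested members of 14 gene lists in septic (left) and control (right) marrow, 1 point per gene, filled where called, with the list median as a bar. Genes with 0 counts in a group stand at their fitted value, which is no bound. The specific granule list has a median of 1.17 in septic and 4.22 in control marrow, and the class II list one of -0.05 and -6.26.

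Most genes that rose continued upward at the later septic stages. Of the 151 genes called higher, 138 had a higher mean level in septic proNeu2 than in septic proNeu1, and 128 had their highest of the 4 septic means in preNeu, 18 in proNeu2 and 5 in proNeu1. Cd177 reached 738 CPM in proNeu2 and 6078 CPM in preNeu, and Ltf, which was low in proNeu1, reached 127 CPM and 11476 CPM. Of the 83 genes called lower, 70 had their highest mean in Ly6C- GMP and 13 in preNeu. Epx averaged 42.3 CPM in proNeu2 and 12.4 CPM in preNeu, both above the proNeu1 values. These counts are descriptions, since the proNeu1 level enters them on both sides.

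**Figure D3:**
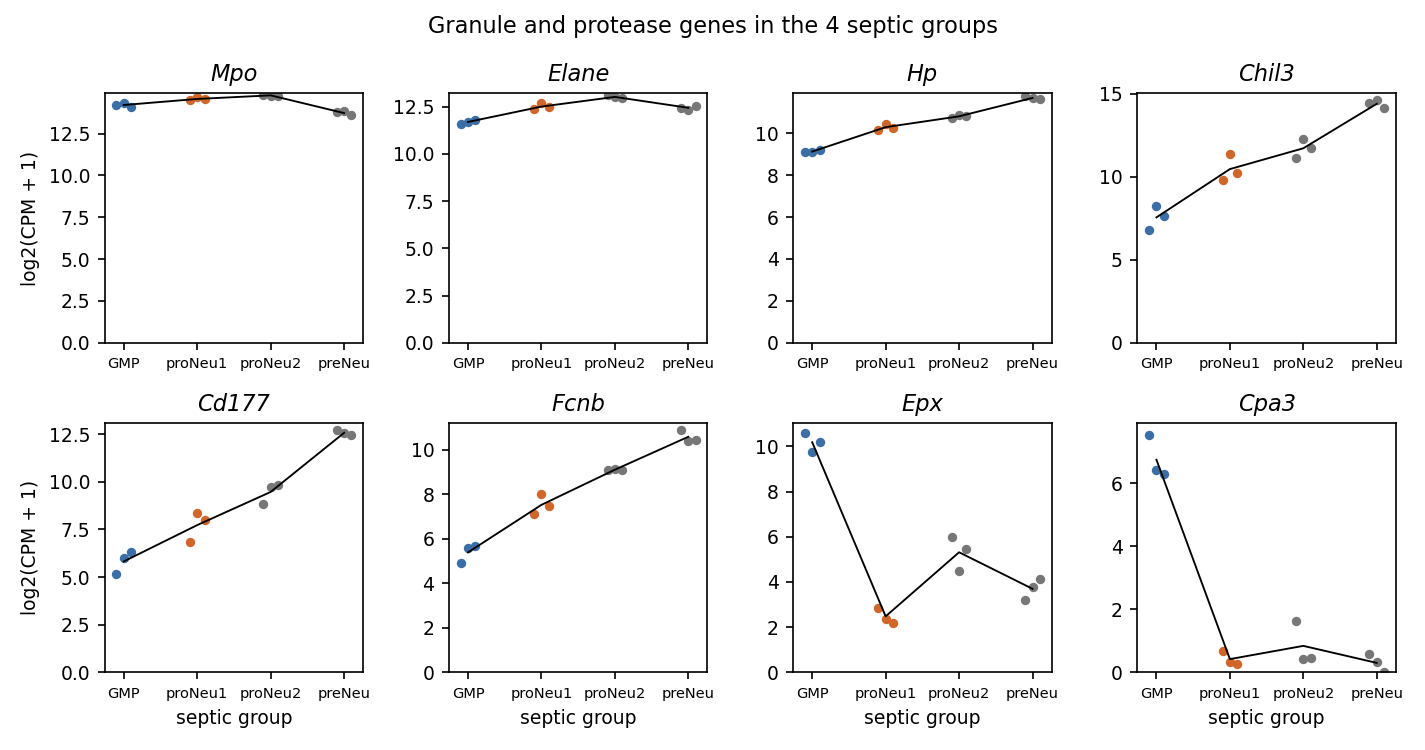
Levels of 8 genes as log2(CPM + 1) in the 4 septic groups, 1 point per library (3 per group) and a line through the group means. Chil3, Cd177 and Fcnb climb at each step, Mpo and Elane stay within a narrow band, and Epx and Cpa3 drop at proNeu1.

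The same stage step in control marrow provided the reference. There 1100 genes were called (6.04%), of which 654 (3.59%) were higher in proNeu1 and 446 (2.45%) were lower. Falls outnumbered rises there by limma (787 against 704) and with edgeR on the compared libraries alone (571 against 444), but not in the other alternatives. Of the 234 septic calls, 185 were also called in control (79.1% of the septic calls and 16.8% of the control calls), 184 of them in the same direction, and 222 had the same sign. The 2 comparisons share no library. Over the 7580 genes at 20 CPM or more in at least 1 of the 4 groups, Pearson's r of the 2 log2 changes was 0.71 across genes, and over all tested genes it was 0.25; genes are not independent replicates, and all libraries share 1 protocol. The 151 septic rises had a median log2 change of 0.90 in septic and 1.04 in control marrow, and 104 of them were smaller in septic marrow. The 83 septic falls had medians of -3.43 and -2.70, and 20 of them were smaller in septic marrow. Both sets were chosen by their septic change, and 13 of the falls had 0 counts in septic proNeu1 and stand at fitted values. These medians therefore do not show whether the stage changes were larger in septic or control marrow.

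**Figure D4:**
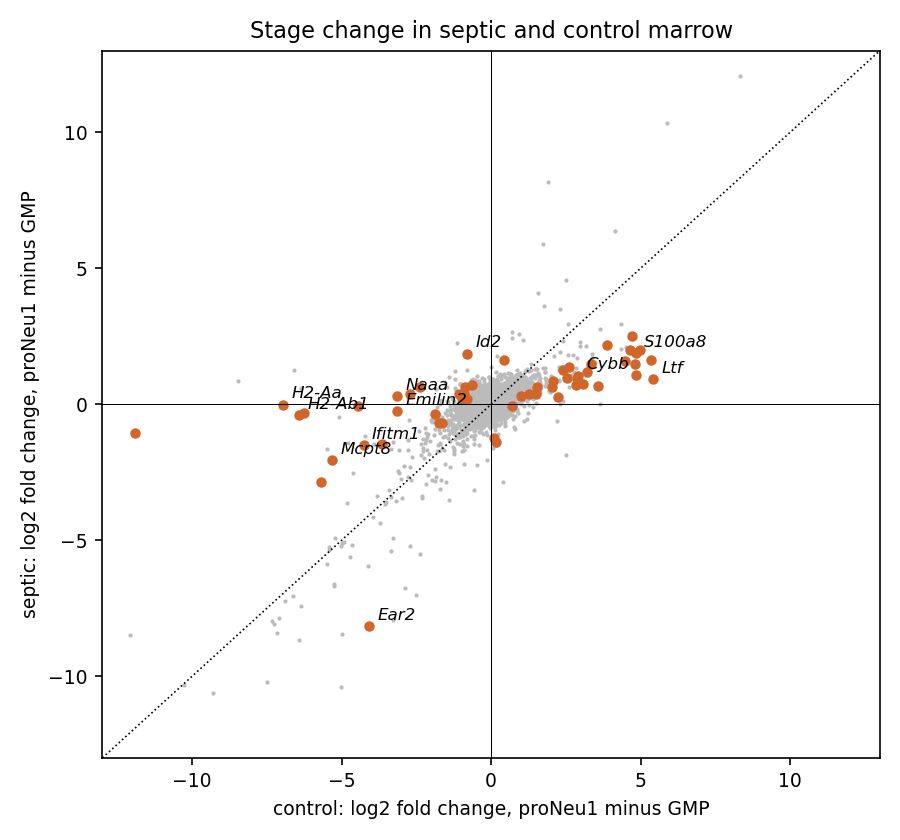
Log2 fold change of proNeu1 minus Ly6C- GMP in control marrow (horizontal) and septic marrow (vertical) for the 7580 genes at 20 CPM or more in at least 1 of the 4 groups, with the dotted line marking equal change. The 55 plotted genes for which the difference itself was called are in orange; H2-Ab1 and H2-Aa lie far left near the septic zero, and Ltf far right.

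The test of the difference between the 2 stage effects called 81 genes (0.445%), 43 with a septic change above the control change (0.236%) and 38 with one below it (0.209%). It named 53 genes without septic Ly6C- GMP replicate 2, and 52 without both proNeu1 libraries under 10 Mcounts. Of the 43 genes, 38 were called lower in control and 34 were not called in septic marrow. Of the 38 genes, 35 were called higher in control, of which the granule genes form the clearest group: 8 of the 17 specific granule genes had a smaller septic rise, against 0 with a larger one.

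Among the genes with a smaller septic rise, 2 different sets of levels were seen. Ltf overlapped between the GMP groups, with 26.3, 17.2 and 22.3 CPM in control and 11.8 to 26.7 CPM in septic libraries, but measured 1357, 649 and 803 CPM in control proNeu1 against 27.9 to 37.9 CPM in septic proNeu1 (difference of log2 changes -4.48 ± 0.63, adjusted p = 0.000252). Camp (-3.31 ± 0.57, adjusted p = 0.00327) and Ngp (-3.80 ± 0.69, adjusted p = 0.00584) also differed. S100a8, a late neutrophil gene, showed the other pattern. It measured 8.58, 12.4 and 11.5 CPM in control Ly6C- GMP against 54.8 to 122 CPM in septic Ly6C- GMP, while control proNeu1 at 415, 293 and 222 CPM overlapped septic proNeu1 at 212 to 444 CPM (-2.96 ± 0.42, adjusted p = 0.0003). Cd177 (-2.98 ± 0.57, adjusted p = 0.00765), S100a9 (-2.66 ± 0.55, adjusted p = 0.0174) and Cybb (-1.84 ± 0.27, adjusted p = 0.000486) were likewise higher in septic than in control Ly6C- GMP, with no overlap between those libraries. Of the genes given for this second pattern, Cd177 alone belonged to the specific granule list. By limma the differences of Ltf, Camp, Ngp, S100a8, Cd177, S100a9 and Cybb were not called. The Cd177 difference was also lost when only the libraries compared were fitted. Without both shallow proNeu1 libraries the Cd177 and Ngp differences were lost. The S100a9 difference was lost in 11 of 21 alternatives, leaving out control GMP replicate 1 or 2, control proNeu1 replicate 1, septic GMP replicate 3 or septic proNeu1 replicate 1 or 3 among them. Clec5a, an activating receptor of myeloid cells, and Mcemp1, a membrane protein of mast cells and granulocytes, had differences of -2.35 ± 0.28 (adjusted p = 2.46e-05) and -1.86 ± 0.21 (adjusted p = 1.34e-05).

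Class II genes gave the largest differences in the other direction. H2-Ab1, the beta chain of the class II molecule I-A, measured 1400, 1134 and 1050 CPM in control Ly6C- GMP, 15.4, 14.5 and 12.1 CPM in control proNeu1, 11.4, 12.3 and 8.53 CPM in septic Ly6C- GMP and 8.35, 12.3 and 3.74 CPM in septic proNeu1. The control GMP libraries stood apart from the other 9, so that the septic change of -0.39 ± 0.35 (adjusted p = 0.814) differed from the control change by 6.03 ± 0.51 (adjusted p = 4.25e-08). H2-Aa (6.95 ± 1.00, adjusted p = 0.000351) and Cd74, the invariant chain (4.40 ± 0.78, adjusted p = 0.00488), had the same pattern. The summed level of the 16 class II and dendritic markers was 2827 to 3865 CPM in control Ly6C- GMP, 329 to 402 CPM in control proNeu1 and at most 195 CPM in both septic groups; the part of dendritic-like cells in the control GMP sort was not tested. Naaa, a lysosomal amidase, had 146, 102 and 74.7 CPM in control Ly6C- GMP and between 9.27 and 17.5 CPM in the other 9 libraries (difference 3.46 ± 0.30, adjusted p = 4.25e-08). Emilin2, an extracellular matrix glycoprotein, was instead low in control proNeu1 alone, at 20.6, 22.5 and 19.0 CPM against 156 to 286 CPM in the other 9 libraries (2.88 ± 0.39, adjusted p = 0.000215).

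**Figure D5:**
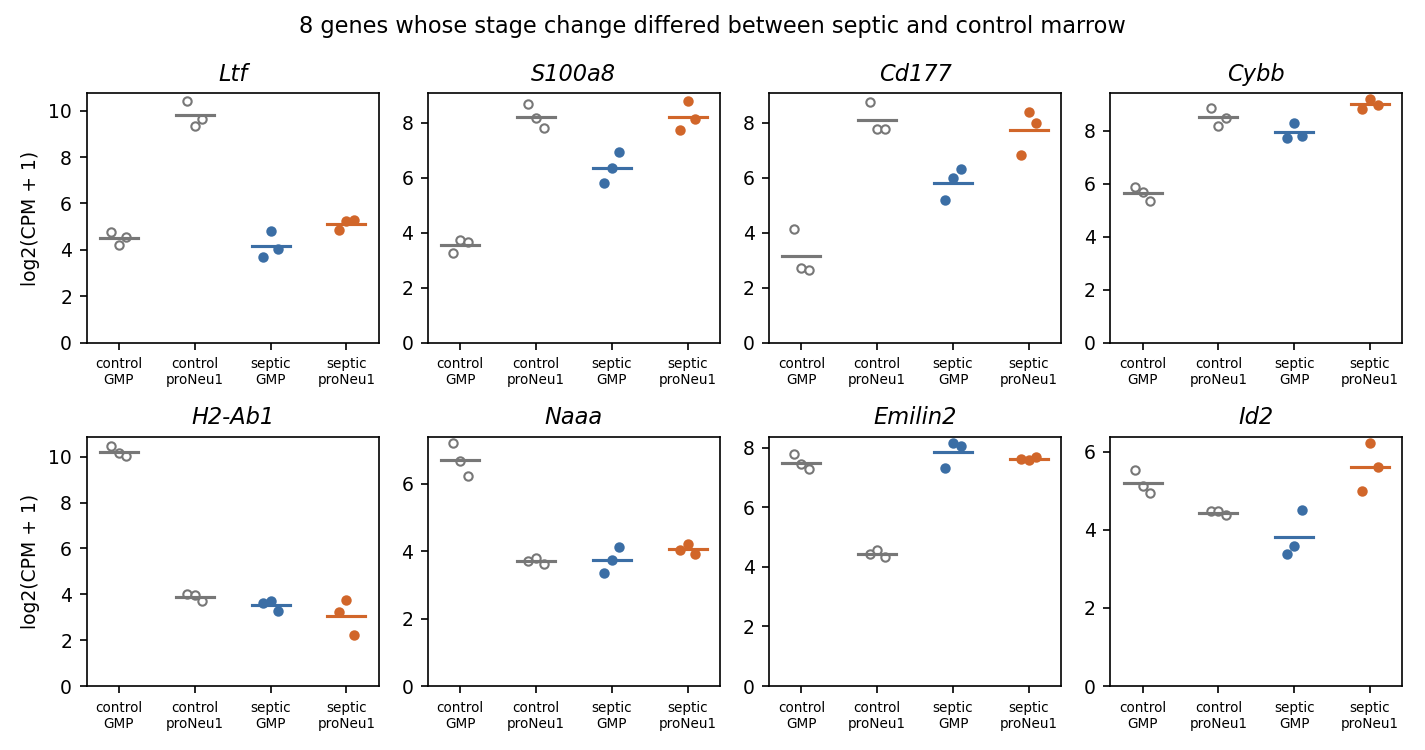
Levels of 8 genes as log2(CPM + 1) in control (open, grey) and septic (filled) Ly6C- GMP and proNeu1, 1 point per library (3 per group) and a line per group mean. Ltf is high in control proNeu1 alone, H2-Ab1 and Naaa in control GMP alone, S100a8, Cd177 and Cybb are higher in septic than in control GMP, and Id2 is higher in septic proNeu1 than in septic GMP, while its control change was not called.

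For a few genes the stage changes had opposite signs. Of the 234 septic calls, 12 had the opposite sign in control marrow, and 1 of them, Ugt1a6a, was called in control as well, at under 1 CPM in each group mean. Id2 measured 45.6, 33.9 and 29.9 CPM in control Ly6C- GMP and 21.4, 21.3 and 19.7 CPM in control proNeu1 (-0.81, adjusted p = 0.0594), against its rise in septic marrow, and the difference was 2.68 ± 0.37 (adjusted p = 0.000215). Ctsh stood at 32.7 and 12.7 CPM on average in septic and at 53.4 and 60.4 CPM in control Ly6C- GMP and proNeu1 (control change 0.18, adjusted p = 0.71, and difference -1.56 ± 0.27, adjusted p = 0.00399). Ifitm1 fell in both, but less in septic marrow (difference 2.78 ± 0.45, adjusted p = 0.00166), and so did Mcpt8 (3.28 ± 0.50, adjusted p = 0.000646) and Ms4a2 (2.84 ± 0.60, adjusted p = 0.0228). The summed level of the 13 basophil and mast cell markers was 8139 to 11310 CPM in control and 446 to 1262 CPM in septic Ly6C- GMP. In proNeu1 it was 746 to 761 CPM in control and 129 to 183 CPM in septic marrow. Ear2 fell further in septic marrow (-4.06 ± 0.86, adjusted p = 0.0225). Its starting level in Ly6C- GMP was 37.7 to 43.1 CPM in the septic libraries and 20.6 CPM on average in control. The septic change of -8.14 ran from -12.67 to -7.51 over the alternatives, and reads of the Ear genes cannot be assigned with certainty. The Ear2 difference was lost in 7 of 21 alternatives, leaving out control GMP replicate 2, control proNeu1 replicate 1 or septic proNeu1 replicate 1 or 3 among them. The Ms4a2 difference was lost in 8 of 21, leaving out control GMP replicate 1, control proNeu1 replicate 2 or 3, septic Ly6C- GMP replicate 2 or 3 or septic proNeu1 replicate 2 among them.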

How the data were processed

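RNA of sorted cells was amplified by SMARTSeq v2 and sequenced as paired reads, per the labels' protocols. Per the submitters' processing notes, the authors used STAR, featureCounts and GRCm38; versions, strand setting and mate counting are not given in the sources used here. The authors deposited 1 table of unnormalized counts (54752 features, 33 libraries, 0 spike-in features), in which 76.2% of the counts between 1 and 10 were even. Groups follow the labels. One edgeR model (edgeR 4.0.16, R 4.3.3) took in all 33 libraries (TMM factors, filterByExpr, robust quasi-likelihood test, 22 residual degrees of freedom, common biological coefficient of variation 0.472), and p-values were adjusted over 18198 genes by Benjamini-Hochberg at 0.05. Levels are CPM of the effective library size, and log2 changes are edgeR's, with an approximate SE. The difference is the interaction contrast of the septic and control stage effects. DESeq2 1.42.0 and limma 3.58.1 (voomWithQualityWeights) were alternatives, with a fold change of 1.5, RLE factors, other filters, only the libraries compared, halved counts and leaving out each library; leaving out both proNeu1 libraries under 10 Mcounts (megacounts) was chosen after seeing the data. On simulated data for the septic comparison (17384 genes, 200 changed) edgeR recovered 57% of 2-fold and 91% of 4-fold changes, with 1.33% of calls false.

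The genes and lists (500 genes in 29 lists) were chosen with earlier results of these data known. Genes named are the 12 largest called rises and falls at 20 CPM or more without overlap, the 2 largest called changes up and down per list, the 3 most abundant markers of other cell types, a fixed panel, and the 10 differences with the lowest p at 20 CPM or more; predicted genes, pseudogenes and immunoglobulin variable segments were left out. Some further list members are named after their values were seen, and some genes are not reported here. Without strand, reads of antisense partners cannot be told apart, and reads of near-identical genes (Ear, Ly6c, Chil and Clec4 families) are uncertain. Floors of 3 counts cover counting error only, and only if the counts are independent reads. If both mates of a pair were counted, the floors are too low and the folds given as at least are too large. Promoters are RefSeq's for GRCm38.p6.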

Additional observations from a re-analysis of the deposited data

Results flagged for a closer look

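The difference between the septic and the control stage effect was called for 81 genes by the interaction test. Among the genes named in the text it was called, with the septic change below the control change, for Ltf (-4.48), Ear2 (-4.06), Ngp (-3.80), Itgb2l (-3.72), Camp (-3.31), Cd177 (-2.98), S100a8 (-2.96), S100a9 (-2.66), Clec5a (-2.35), Siglece (-2.01), Mcemp1 (-1.86), Cybb (-1.84), Fcnb (-1.70), Dgat2 (-1.57), Ctsh (-1.56) and Ncf4 (-0.89), on the log2 scale. The septic change lay above the control change for H2-Aa (6.95), H2-Ab1 (6.03), Cd74 (4.40), Naaa (3.46), Mcpt8 (3.28), Emilin2 (2.88), Ms4a2 (2.84), Ifitm1 (2.78) and Id2 (2.68). The differences of Fcnb and Ncf4 were lost without the shallow septic proNeu1 library, and that of Ncf4 also without control proNeu1 replicate 3.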

How the results depend on the processing

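The count of 234 genes for the septic stage was 465 by DESeq2, 767 by limma, 489 when only the 6 libraries compared were fitted and 55 against a fold change of 1.5, and ran from 96 to 220 when each library was left out. The count of 81 for the difference was 217 by DESeq2, 35 against a fold change of 1.5 and 52 without both shallow proNeu1 libraries, and ran from 53 to 88 over the libraries left out; limma called 78, of which 34 were among the 81. The control count of 1100 was 397 against a fold change of 1.5 and ran from 711 (without control proNeu1 replicate 3) to 907. The other filters, RLE factors and halved counts kept each count within 1.5 times. limma did not call the difference for Ltf, Camp, Ngp, Cybb, H2-Aa, Cd74, S100a8, S100a9, Cd177, Fcnb, Itgb2l, Dgat2 and Siglece. Among the genes reported here the sign turned only for uncalled changes: H2-Aa was 0.15 by DESeq2, 0.22 in the compared libraries alone and -0.55 to 0.62 with each library left out, and Hba-a1 -0.020 by limma and -0.12 to 0.23. With each library left out the change ran from -0.43 to 0.22 for Cd74, -0.074 to 0.43 for Cebpa, -0.80 to 0.043 for Csf1r, -0.091 to 0.14 for Cst3, -4.41 to 0.056 for Il7r and -1.57 to 0.078 for Irf8. The cause of these shifts was not tested. No paired analysis was possible because the labels give the groups no shared replicate numbers. Genes near the floor of 3 counts, and changes under 2-fold, are at the limit of this depth with 3 libraries per group.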

Other observations

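Several further gene families, which share some members with the lists, were counted after their values had been seen, so the counts are descriptions. Over all tested genes 0.83% were called higher in septic and 3.59% in control marrow. Of 25 genes of triglyceride synthesis and lipid droplets, 7 were called higher and 0 lower in the control step (median log2 change 0.24). In septic proNeu1, 5 were called higher and 0 lower (median log2 change 0.16). Dgat2, which makes triglyceride, rose from 328 ± 68.6 to 645 ± 124 CPM (SD, n = 3; log2 change 0.97, adjusted p = 0.0107 by edgeR), and Abhd5, the activator of the lipase ATGL, from 57.4 ± 8.16 to 120 ± 17.5 CPM (1.06, adjusted p = 0.000646). The others were Agpat2 (0.97), Mogat2 (1.25) and Plin3 (0.73). Abhd5 and Plin3 were called whichever library was left out, Dgat2 and Agpat2 not without Ly6C- GMP replicate 1 or proNeu1 replicate 2 or 3 (Agpat2 also not without GMP replicate 2), and Mogat2 was not called once any 1 library was left out. Of 17 genes of glycogen metabolism, 3 were called higher and 0 lower: the glycogen synthase gene Gys1 (0.54), the branching enzyme gene Gbe1 (0.70) and the phosphorylase gene Pygl (0.70). Each of the 3 calls was lost without Ly6C- GMP replicate 1 or 3 or proNeu1 replicate 2 or 3. The control step had 6 of the 17 called higher and 0 lower. Of 22 genes of the vacuolar proton pump, 4 were called higher and 0 lower (Atp6v0d1, Atp6v1a, Atp6v1c1 and Tcirg1), with log2 changes from 0.47 to 0.66. Atp6v0d1 and Atp6v1a are the 2 rises of the lysosome list given above. Atp6v1a alone was called whichever library was left out. In the control step 8 of the 22 were called higher and 1 lower.

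Paired and lectin receptors also stood among the rises. Pilra and Pilrb2, an inhibitory and an activating receptor that can share reads, rose by 1.43 and 1.71 on the log2 scale (adjusted p = 0.00316 and 0.00554 by edgeR), and Siglece, an inhibitory sialic acid receptor, rose from 19.3 ± 4.47 to 44.2 ± 9.36 CPM (SD, n = 3; 1.20, adjusted p = 0.00725). Of 23 C-type lectin genes, 5 were called higher and 1 lower in the control step. The septic step had 3 higher and 0 lower: Clec12a, Clec4a2 and Clec4b2. Pilra, Pilrb2 and Siglece were not called without Ly6C- GMP replicate 1, nor Pilrb2, Siglece and Clec4b2 without proNeu1 replicate 2. At the other end, 13 called genes had 0 counts in all 3 septic proNeu1 libraries; among them Slc45a3, a solute carrier, and Cdh1, E-cadherin, were at least 176-fold and at least 141-fold lower against a floor of 3 counts; Cdh1 was not called without Ly6C- GMP replicate 1 or proNeu1 replicate 2 or 3.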
